A study of Mus musculus with 12 samples.

Results

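The genes described here are 9 regulators and markers of upper-layer cortical neurons: the transcription factor genes Lhx2, Pou3f2, Pou3f3, Cux1, Cux2, Rorb, Mef2c and Bhlhe22, and the adhesion gene Mdga1. They were chosen by name, with earlier results of these data known, and matched by symbol to Ensembl identifiers. They are 9 of the 55487 genes counted by RNA sequencing. All 9 passed the filter on low counts in every fit. The samples were 12 individual male mice in 4 groups of 3, from a study of what the loss of exon 7 of Auts2 does in the brain. The first comparison was made in forebrain at postnatal day 0 (P0), between knockouts homozygous for loss of exon 7 through Cmv-cre, a transgene expressed in all tissues, and their wild-type littermates, labelled BL6 WTLM. The second was made in hippocampus at postnatal day 14 (P14), between knockouts made with Nes-cre, a transgene active in neural progenitors and the cells they give rise to, and littermate controls labelled auts2-ex7-fl-het, which carry 1 floxed copy. Whether the P14 controls also carry Nes-cre is not given by the labels. The comparisons differ at once in tissue, age, Cre line and the genotype of the controls, and these cannot be told apart where the comparisons are set side by side.

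The cerebral cortex is built in layers, and the neurons of its upper layers are born late and send many of their axons to other cortical areas, including through the corpus callosum. A sequence of transcription factors takes these cells from progenitor to placed neuron: LHX2 acts in cortical progenitors, the POU factors POU3F2 and POU3F3 act in late progenitors and young upper-layer neurons, and CUX1, CUX2 and RORB mark or shape the neurons that settle there. MEF2C and BHLHE22 act in differentiating cortical neurons, and MDGA1 is a membrane-anchored protein of upper-layer neurons that binds neuroligins. Several of these genes have other roles outside the upper layers, and in the hippocampus LHX2, MEF2C and BHLHE22 are known from hippocampal neurons or their progenitors.

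Total counts per library ran from 11247150 to 16796797 at P0 and from 16830720 to 23340621 at P14. Auts2, the targeted gene, was counted over all of its isoforms, so these counts do not measure exon 7. Auts2 did not pass the threshold in either comparison, at a log2 fold change of 0.16 at P0 (edgeR adjusted p = 0.362) and -0.30 at P14 (adjusted p = 0.111). As a check on forebrain origin, Emx1, Neurod2, Neurod6 and Slc17a7 were present in all 4 groups. By contrast, 6 hindbrain and midbrain genes summed to at most 1.34 CPM (counts scaled to a common library total) in any library. These markers do not tell hippocampus from other parts of the forebrain. The P0 libraries carry numbers from 1407 to 1410 and from 1415 to 1416, and replicate 3 of each P0 group belongs to the later numbers. In bulk tissue, fewer cells of a type and less RNA per cell cannot be told apart.

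The levels of the 9 genes spanned a wide range. Compared per kilobase of exon (RPKM, CPM per kilobase), the highest mean level in P0 wild-type forebrain was that of Bhlhe22 at 48.3 RPKM, followed by Pou3f3 at 33.7, Mef2c at 30.4, Lhx2 at 19.9 and Pou3f2 at 14.1. Mdga1 stood at 10.5 RPKM, Cux2 at 7.85, Cux1 at 7.45 and Rorb, the lowest, at 2.33. On this scale the Cux genes and Rorb stood below the other genes, an order that depends on the exon lengths used. By CPM in the same libraries, Cux1 at 149 stood above Lhx2 at 87.4, and Cux2 at 79.1 was level with Pou3f2 at 78.9. Rorb was lowest by CPM too, at 25.8. In the P14 control hippocampus Bhlhe22 was again highest at 61.3 RPKM and Rorb lowest at 1.84. Lhx2 stood at 22.8 and Pou3f3 at 20.0 RPKM, above Mdga1 at 10.6 and Mef2c at 9.09. Pou3f2 at 3.41, Cux2 at 2.69 and Cux1 at 2.62 RPKM were near the bottom of that order. Mef2c moved furthest down the order between these control groups, from the third place to the fifth. The lowest count behind any of these levels was 238 reads, for Rorb in a P0 knockout library.

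Between contexts, the control means fell into 3 kinds. Pou3f2 was 4.13 times as high in P0 wild-type forebrain as in P14 control hippocampus, Mef2c 3.35 times, Cux2 2.92 times, Cux1 2.84 times and Pou3f3 1.69 times, with no overlap between the libraries of the control groups. Lhx2, Rorb and Mdga1 overlapped between the control groups, at P0 to P14 ratios of 0.874, 1.26 and 0.990. Bhlhe22 was higher in the P14 controls, at 1.27 times its P0 wild-type mean, with no overlap. These ratios compare different tissues at different ages and were not tested.

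Ordering the 4 groups by mean CPM separates the genes further. Cux1, Cux2 and Pou3f2 ran from P14 controls through P14 knockouts and P0 wild types to P0 knockouts, with no overlap between neighbouring groups. The step between the contexts was the widest in each, at 2.41-fold for Cux1, 2.33-fold for Cux2 and 3.72-fold for Pou3f2. Pou3f3 had the same order, but its P14 groups overlapped. Mef2c was lowest in the P14 controls, 1.503-fold higher in the P14 knockouts and a further 2.08-fold higher in the P0 knockouts, and its P0 groups overlapped. For Lhx2, the P0 wild-type, P14 knockout and P14 control groups overlapped as neighbours, and the P0 knockouts stood above them. For Mdga1, the P14 knockouts had the highest mean and stood above both P0 groups, but they overlapped with the P14 controls, and the other neighbouring groups overlapped as well. For Bhlhe22 and Rorb, every group overlapped with its neighbours in the order.

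**Figure D1:**
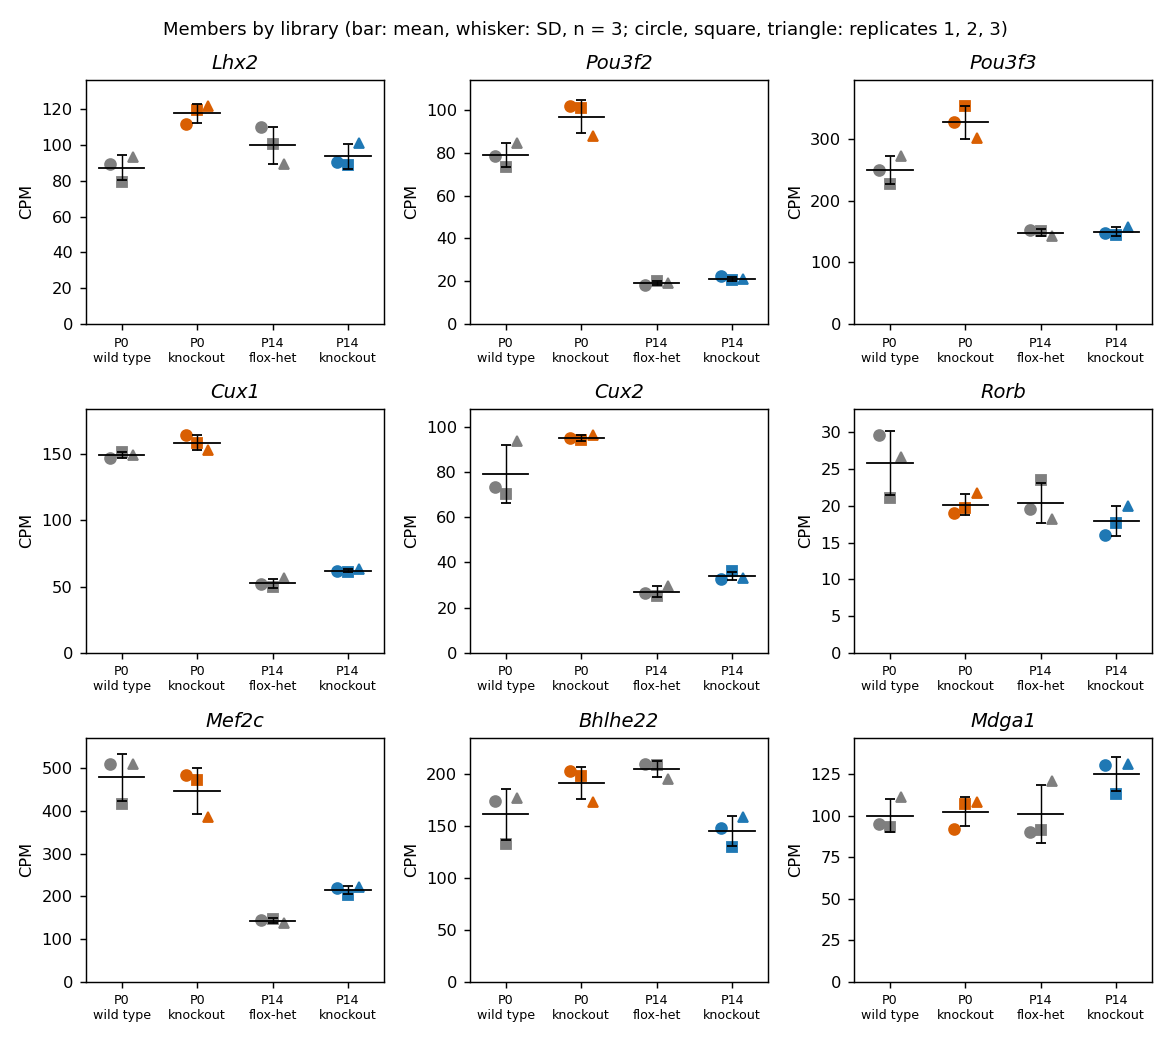
CPM (vertical axis, from 0) of the 9 genes in each of the 12 libraries, 1 panel per gene, with points for libraries, bars for group means and whiskers for SD (n = 3). The 3 P0 knockout libraries lie above the wild types for Lhx2, the P14 knockout libraries lie above the controls for Mef2c, and the P14 knockout libraries lie below the controls for Bhlhe22.

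At P0, Lhx2 rose in the knockout forebrain, and it was the 1 gene of the 9 that passed the threshold (adjusted p under 0.05), set against 0.909% of the 16176 genes tested, or 0.192% higher and 0.717% lower. The other genes that act early in the upper-layer sequence, Pou3f3 and Pou3f2, had positive log2 fold changes that did not pass. Of the 9 genes, 7 had a positive log2 fold change, and their median was 0.24 against -0.00 over all genes tested. All 3 knockout libraries stood above all wild-type libraries for 5 genes, against 10.7% of all genes tested, and below for 0, against 11.1% (21.8% in either direction). An unadjusted p under 0.05 was reached by 6 of the 9 genes and by 16.1% of all genes tested. Since the 9 genes were chosen with earlier results of these data known, these shares do not test them as a set.

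Lhx2 (ENSMUSG00000000247, GRCm38 chr2:38339281-38369733, plus strand) encodes a LIM-homeodomain factor needed for the identity of cortical and hippocampal progenitors. It was at 89.4, 79.5 and 93.3 CPM in the wild types and at 111.7, 119.8 and 122.0 CPM in the knockouts. The groups did not overlap, and the lowest knockout stood above the highest wild type. Mean levels were 87.4 ± 7.09 and 117.8 ± 5.43 CPM (SD, n = 3 in either group), and the knockouts differed by a log2 fold change of 0.42 (SE 0.08, 95% interval from 0.25 to 0.60, edgeR quasi-likelihood test, adjusted p = 0.0368). The call was lost when knockout replicate 1 or 2 or wild-type replicate 1 or 2 was left out, with adjusted p over the 6 fits without 1 library from 0.00806 to 0.218 and log2 fold changes from 0.36 to 0.49. The fits that lost it called between 1 and 15 of all genes tested, against 147 with all 6 libraries. The Lhx2 call was also lost with non-robust fitting (adjusted p = 0.0564) and was kept in 9 other settings. The lowest edgeR adjusted p of these, 1.55e-04, came from a fit to the libraries numbered 1407 to 1410 alone. That fit was added after the data had been seen and called 12.9% of all genes tested.

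The POU genes encode closely related homeodomain factors of late progenitors and young upper-layer neurons. Pou3f3 (ENSMUSG00000045515, chr1:42695768-42703176, plus strand) was at 249.7, 227 and 273 CPM in the P0 wild types and at 327, 354 and 301 CPM in the knockouts. Its groups did not overlap, and the log2 fold change of 0.38 (SE 0.08, interval from 0.20 to 0.56) did not pass (edgeR adjusted p = 0.0505). Pou3f2 (ENSMUSG00000095139, chr4:22482780-22488366, minus strand) was at 78.7, 73.4 and 84.4 CPM in the wild types and at 102.0, 101.1 and 87.8 CPM in the knockouts. Its groups did not overlap either, and knockout replicate 3 was the lowest of its group. The Pou3f2 log2 fold change was 0.29 (SE 0.09, interval from 0.10 to 0.48, adjusted p = 0.126).

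Cux1 and Cux2 encode cut-homeodomain factors that mark the upper layers and regulate dendrites and synapses of their neurons. Both lie on chromosome 5, as Auts2 does: Cux1 (ENSMUSG00000029705, chr5:136248135-136567490, minus strand) is 3.70 Mb from it and Cux2 (ENSMUSG00000042589, chr5:121856366-122050102, minus strand) 9.39 Mb. Cux2 was at 73.4, 70.3 and 93.7 CPM in the P0 wild types and at 95.1, 94.0 and 96.5 CPM in the knockouts. The groups did not overlap, but wild-type replicate 3 came close to the knockouts, and the log2 fold change of 0.26 (SE 0.10, interval from 0.04 to 0.47) did not pass (edgeR adjusted p = 0.225). Cux1 was at 147, 151 and 149 CPM in the wild types and at 165, 158 and 153 CPM in the knockouts, again without overlap, at a log2 fold change of 0.08 (interval from -0.07 to 0.23, adjusted p = 0.606). Cux1 shares 1.97% of its exon bases with the antisense gene Gm16599, and counts made without strand cannot separate reads from those bases.

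The remaining genes overlapped between the P0 groups. Bhlhe22, a basic helix-loop-helix repressor gene that helps assign cortical areas, had a log2 fold change of 0.24 (SE 0.11, edgeR adjusted p = 0.288). Rorb (ENSMUSG00000036192, chr19:18930605-19111196, minus strand), the layer 4 nuclear receptor gene, was at 29.7, 21.1 and 26.6 CPM in the wild types and at 19.0, 19.7 and 21.7 CPM in the knockouts. Wild-type replicate 2 lay inside the knockout range, and the log2 fold change was -0.36 (SE 0.13, interval from -0.63 to -0.09, adjusted p = 0.188). Mef2c at -0.10 (interval from -0.32 to 0.11) and Mdga1 at 0.03 (interval from -0.17 to 0.22) had intervals on both sides of 0.

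The P0 differences were larger in size in the libraries numbered 1407 to 1410 than in the later pair for 8 of the 9 genes, a contrast that was not tested. In a fit to those 4 libraries alone, added after the data had been seen, Lhx2 had a log2 fold change of 0.46 (edgeR adjusted p = 1.55e-04), Pou3f3 0.51 (1.89e-06), Pou3f2 0.42 (3.45e-04) and Cux2 0.40 (7.07e-04). That fit called 12.9% of the 16271 genes tested. In the later pair, 1 library a group with no test, the log2 ratio of knockout to wild type was 0.39 for Lhx2, 0.14 for Pou3f3, 0.06 for Pou3f2 and 0.04 for Cux2. Lhx2 was thus nearly as far apart in the later pair as in the first 4 libraries, while Cux2 and Pou3f2 were close to level in it. With the number series as a term, Lhx2 (adjusted p = 0.0119) and Pou3f3 (adjusted p = 0.0284) passed, and Pou3f2 (0.0782) and Cux2 (0.0922) did not, in a fit that called 2.87% of all genes tested. Mef2c was at 0.05 in the first series and -0.40 in the later pair.

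Markers of other regions and cell types were read beside these P0 values. The 5 forebrain and telencephalon markers summed to between 544 and 678 CPM in the wild types and between 751 and 815 CPM in the knockouts, and 4 of the 5 had positive log2 fold changes, with a median of 0.37. Neurod2 at 0.44 and Neurod6 at 0.37, genes of cortical excitatory neurons, did not pass (edgeR adjusted p = 0.0565 and 0.0717), beside 0.42 for Lhx2. By edgeR 0 of the 5 passed as higher, while 4 were higher at an unadjusted p under 0.05 and DESeq2 called 2 higher. Slc17a7, the vesicular glutamate transporter gene of maturing cortical neurons, fell by 0.54 on the log2 scale (adjusted p = 0.0368), a call kept in 1 of 6 fits without 1 library. The astrocyte list summed to between 699.9 and 895 CPM in the wild types and between 649 and 659 CPM in the knockouts, with 1 of 8 genes positive and a median log2 fold change of -0.36. Of its genes, edgeR called Aqp4 lower, at -0.59 (adjusted p = 0.0416, kept in 2 of 6 fits without 1 library), and DESeq2 called 4 lower.

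Markers of microglia, hippocampus and progenitors were read in the same way at P0. The microglial list summed to between 76.6 and 99.8 CPM in the wild types and between 67.8 and 74.2 CPM in the knockouts, with 0 of 8 genes positive and P2ry12 called lower at -0.93 (edgeR adjusted p = 0.0368, kept in 2 of 6 fits). Dentate granule markers summed to between 207 and 240.2 CPM and between 162 and 178 CPM, with 0 of 7 genes positive, a median of -0.54 and Calb1 called lower (kept in 2 of 6 fits). Most of that sum in the wild types was Calb1, Stxbp6 and Prox1, with means of 62.6, 56.8 and 55.6 CPM. Dsp and C1ql2 stood at 1.71 and 3.17 CPM there. Prox1 was close to level between the P0 groups, at -0.08 (edgeR adjusted p = 0.708). The lower sum thus does not describe all genes of that list. CA pyramidal markers summed to between 492 and 580.0 CPM and between 627 and 663 CPM, with 3 of 7 genes positive and 0 called by edgeR, 1 higher at an unadjusted p under 0.05 and 1 called by DESeq2. Summed levels of these 4 cell-type lists thus did not overlap between the P0 groups, the astrocyte, microglial and dentate sums being lower in the knockouts and the CA pyramidal sum higher. Most of the CA pyramidal sum was 1 gene, Mpped1, with means of 427 CPM in the wild types and 544 CPM in the knockouts. The median log2 fold change of that list was -0.04, so its higher sum does not describe its genes in general. The 9 progenitor markers summed to between 381 and 409 CPM in the wild types and between 404 and 446 CPM in the knockouts, which overlap. The 7 thalamic markers summed to between 389.8 and 505 CPM and between 308 and 453 CPM, also overlapping, with 1 gene positive and Prkcd called lower (kept in 1 of 6 fits). Whether any of these shifts has a part in the Lhx2 result was not tested.

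At P14, Mef2c rose and Bhlhe22 fell in the knockout hippocampus, and the other genes did not pass the threshold. The count of 2 of 9, with 1 higher and 1 lower, stands beside 1.99% of the 17208 genes tested (1.21% higher and 0.773% lower). The median log2 fold change of the 9 genes was 0.16, against -0.01 over all genes tested, and 6 were positive. The knockout libraries stood above all controls for 4 genes, Mef2c, Cux1, Cux2 and Pou3f2, against 9.43% of all genes tested, and below all controls for Bhlhe22, against 10.6% (20.0% in either direction). An unadjusted p under 0.05 was reached by 5 of the 9 genes and by 15.2% of all genes tested. As at P0, these shares do not test the 9 genes as a set.

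**Figure D2:**
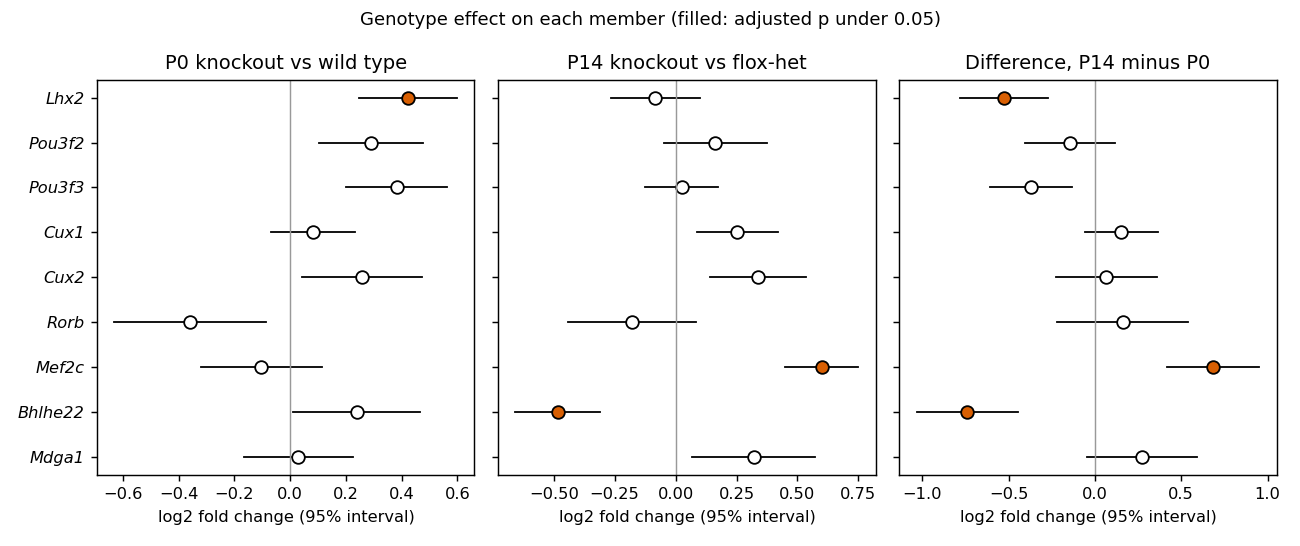
Log2 fold changes of the 9 genes at P0 and at P14 and the difference between them, with 95% intervals from edgeR and filled points past the threshold. Of the changes within a context, Lhx2 at P0 (0.42), Mef2c at P14 (0.60) and Bhlhe22 at P14 (-0.48) are those past the threshold, and Mef2c and Bhlhe22 take different signs at P0.

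Mef2c (ENSMUSG00000005583, chr13:83504034-83667080, plus strand) encodes a MADS-box factor that controls synapse number and the differentiation of excitatory neurons. It was at 145, 146 and 137 CPM in the P14 controls and at 219, 204 and 222 CPM in the knockouts. The groups were far apart, with the lowest knockout well above the highest control. Mean levels were 142.8 ± 5.49 CPM in controls and 214.7 ± 9.68 CPM in knockouts (SD, n = 3 in either group). The rise was 1.52-fold, a log2 fold change of 0.60 (SE 0.07, interval from 0.45 to 0.75, edgeR adjusted p = 5.24e-04). The call held in each of the 6 fits that left out 1 library, at log2 fold changes from 0.57 to 0.64, and in each of 8 other settings, from 0.59 to 0.71.

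Bhlhe22 (ENSMUSG00000025128, chr3:18054174-18057517, plus strand) encodes a bHLH repressor that works with PRDM8. It was at 210.2, 209 and 196 CPM in the controls and at 148, 129 and 159 CPM in the knockouts, so that the highest knockout stood below the lowest control. Mean levels were 204.9 ± 7.82 CPM in controls and 145.4 ± 14.8 CPM in knockouts (SD, n = 3 in either group). The log2 fold change was -0.48 (SE 0.08, interval from -0.66 to -0.31, edgeR adjusted p = 0.00613), a ratio of 0.715. Leaving out control replicate 2 took the adjusted p to 0.0512, and the call held in the other 5 such fits and in 8 other settings, with adjusted p from 9.61e-07 to 0.0431.

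Sequences before RefSeq starts are shown for Mef2c and Lhx2, because they differ in the makeup of these stretches and because the motif for BHLHE22, itself a changed gene, occurs before a Mef2c start. RefSeq windows on GRCm38.p6, each of 300 bases with 250 before and 50 after a start, matched 8 of the 9 genes, all but Bhlhe22, in 13 windows. Exact matches on both strands were sought for 6 motifs. The POU octamer was searched as ATGCAAAT and the MEF2 site as CTAAAAATA. The LHX2 homeodomain site was searched as TAATTA. For the CUX proteins the letters were ATCGAT. The site of ROR receptors was searched as AGGTCA. The E-box known for BHLHE22 was searched as CATATG. Of the 13 windows, 4 held a match, namely the 3 windows of Mef2c and 1 of Cux2. The 250 bases before each start follow, 5′ to 3′ on the plus strand, with motif matches in capitals.
Mef2c, first start, chr13:83503784-83504033: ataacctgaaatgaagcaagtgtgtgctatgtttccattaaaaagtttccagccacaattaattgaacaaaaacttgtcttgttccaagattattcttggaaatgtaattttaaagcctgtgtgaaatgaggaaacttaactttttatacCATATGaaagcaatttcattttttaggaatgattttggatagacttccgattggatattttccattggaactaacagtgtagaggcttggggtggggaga
Mef2c, next start, chr13:83523406-83523655: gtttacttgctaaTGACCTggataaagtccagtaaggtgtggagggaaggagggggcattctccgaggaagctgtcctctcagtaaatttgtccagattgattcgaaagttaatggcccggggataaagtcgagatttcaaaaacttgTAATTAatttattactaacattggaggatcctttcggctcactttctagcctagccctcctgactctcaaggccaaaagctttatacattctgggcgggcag
Lhx2, first start, chr2:38339031-38339280: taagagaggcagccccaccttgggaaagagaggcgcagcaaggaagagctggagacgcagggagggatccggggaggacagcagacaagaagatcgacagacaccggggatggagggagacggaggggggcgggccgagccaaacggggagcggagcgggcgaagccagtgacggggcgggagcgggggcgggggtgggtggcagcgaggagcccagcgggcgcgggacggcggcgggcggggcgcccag
The first Mef2c stretch holds CATATG 100 bases before the start, and the next holds TAATTA 102 bases and the ROR site, read on the other strand, 237 bases before its start. None of these matches overlap each other. The stretches are 33.6% and 44.8% G or C in Mef2c and 72.8% in Lhx2, where none of the 6 motifs occurs. CATATG is held by 3.91% of all 32851 RefSeq windows, TAATTA by 5.29% and AGGTCA by 16.3%. ATGCAAAT is held by 1.74%, ATCGAT by 0.925% and CTAAAAATA by 0.517%. A match describes these letters, and binding was not measured here.

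The cut-homeodomain and POU genes at P14 gave positive values that did not pass. Cux2 was at 26.4, 25.2 and 29.6 CPM in the controls and at 32.8, 36.1 and 33.2 CPM in the knockouts, without overlap, at a log2 fold change of 0.34 (SE 0.09, interval from 0.14 to 0.54, edgeR adjusted p = 0.0764). Cux1 was at 51.8, 49.5 and 56.2 CPM in the controls and at 61.4, 61.2 and 63.6 CPM in the knockouts, also without overlap, at 0.25 (SE 0.08, adjusted p = 0.120). Pou3f2 was at 18.3, 20.0 and 18.9 CPM in the controls and at 22.2, 20.6 and 20.8 CPM in the knockouts, narrowly without overlap, at a log2 fold change of 0.16 (adjusted p = 0.469). The Cux genes were thus both higher in every knockout than in every control, in this context as at P0, and passed in neither. All knockouts stood above all controls for 10.7% of all genes tested at P0 and for 9.43% at P14, and the share in both was not counted. At P0 the Cux1 difference was small, at 0.08 with an interval on both sides of 0.

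Mdga1 (ENSMUSG00000043557, chr17:29827949-29970087, minus strand) was at 90.4, 91.4 and 121.0 CPM in the P14 controls and at 131, 113 and 131 CPM in the knockouts. Control replicate 3 lay inside the knockout range, and the log2 fold change was 0.32 (SE 0.12, interval from 0.07 to 0.57, edgeR adjusted p = 0.207). Without that control, 5 of the 9 genes passed: Cux1, Cux2 and Mdga1 joined Mef2c and Bhlhe22, in a fit that called 10.3% of all 17491 genes tested. Pou3f3 at 0.03 (interval from -0.12 to 0.18), Lhx2 at -0.08 (interval from -0.27 to 0.10) and Rorb at -0.18 (interval from -0.44 to 0.08) had overlapping groups and intervals on both sides of 0.

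Markers of hippocampal and neighbouring cells were read beside the P14 changes. The 9 dentate granule markers summed to between 636 and 700.2 CPM in the controls and between 424 and 461 CPM in the knockouts, and 7 of them fell, 4 of these in all 6 fits without 1 library, with a median log2 fold change of -0.63. The 11 deep-layer cortical markers summed to between 769.6 and 801 CPM in the controls and between 839 and 966 CPM in the knockouts, with 6 genes risen, 10 positive and a median of 0.36. Of the 6, Foxp2 alone was called in all 6 fits without 1 library. CA pyramidal markers summed to between 674 and 732 CPM in the controls and between 705 and 751 CPM in the knockouts. Of those 9 genes, Mpped1 rose by 0.48 (edgeR adjusted p = 0.00500) and Iyd had a log2 fold change of -1.22 (adjusted p = 0.00259), each called in 6 of 6 fits without 1 library, and Bok one of -0.44 (adjusted p = 0.0170, 2 of 6 fits). Dentate and deep-layer markers thus stood apart between the groups in summed level, while CA pyramidal markers overlapped. The largest part of the deep-layer sum was Crym, with means of 388 CPM in the controls and 444 CPM in the knockouts. Crym did not pass (log2 fold change 0.20, edgeR adjusted p = 0.226), nor did Bcl11b, the next largest (0.06, adjusted p = 0.774). The deep-layer sum thus does not describe the genes called on that list. The 7 markers of striatal projection neurons were all positive, summing to between 48.4 and 66.5 CPM in the controls and between 83.9 and 147 CPM in the knockouts, though Drd1 alone passed. The thalamic list summed to between 208 and 245 CPM in the controls and between 172 and 190.3 CPM in the knockouts, with 1 of 6 genes positive and Lef1 (-1.16, kept in 4 of 6 fits) and Calb2 (-0.44, kept in 3 of 6) called lower. The thalamic sums did not overlap either. Most of the thalamic sum in the controls was Calb2, Plekhg1 and Prkcd, with means of 86.0, 53.5 and 40.2 CPM, while Tcf7l2 stood at 11.8 CPM. The positive gene was Slc17a6, at 0.42 (edgeR adjusted p = 0.402). The endothelial list summed to between 232 and 239.9 CPM in the controls and between 189 and 207 CPM in the knockouts with 0 of 7 genes called by edgeR, 3 lower at an unadjusted p under 0.05 and 1 called by DESeq2. Microglial markers overlapped, at 332 to 358 CPM and 331 to 383 CPM. No gene of these 7 lists was at 0 in all libraries of a group, and the part of these shifts in the Mef2c and Bhlhe22 results was not tested.

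**Figure D3:**
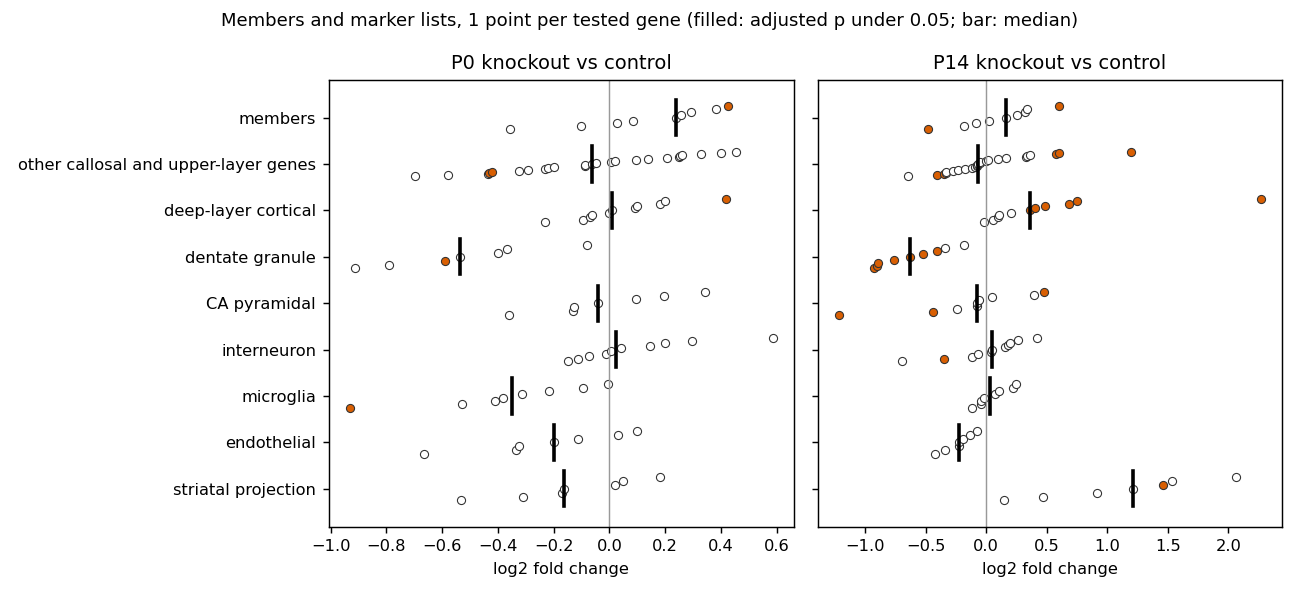
Log2 fold changes at P0 and P14 for the 9 genes (members), the other callosal and upper-layer genes and 7 marker lists, with 1 point per gene tested, filled where adjusted p is under 0.05, and a bar at the median. At P14 the dentate granule median is -0.63 and the deep-layer median 0.36, while that of the other upper-layer genes is -0.07.

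The effect of genotype on 3 of the 9 genes differed between the contexts. In a fit to all 12 libraries, the P14 log2 fold change minus that at P0 was 0.69 for Mef2c (SE 0.13, interval from 0.42 to 0.95, edgeR adjusted p = 0.00682), -0.74 for Bhlhe22 (SE 0.14, interval from -1.03 to -0.45, adjusted p = 0.00855) and -0.53 for Lhx2 (SE 0.12, interval from -0.78 to -0.27, adjusted p = 0.0307). Calls of this term were made for 1.79% of the 18189 genes tested, 1.37% higher and 0.423% lower, and an unadjusted p under 0.05 was reached by 4 of the 9 genes and by 15.3% of all. Bhlhe22 and Lhx2 had positive estimates at P0 and negative ones at P14, and Mef2c the opposite, though in each gene the estimate in 1 of the contexts did not pass. Mef2c and Bhlhe22 were called in all 12 fits that left out 1 library, and Lhx2 in 5 of the 12. For the other 6 genes the difference did not pass, with Pou3f3 at -0.37 (adjusted p = 0.108) and Cux2 at 0.07 (adjusted p = 0.872).

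**Figure D4:**
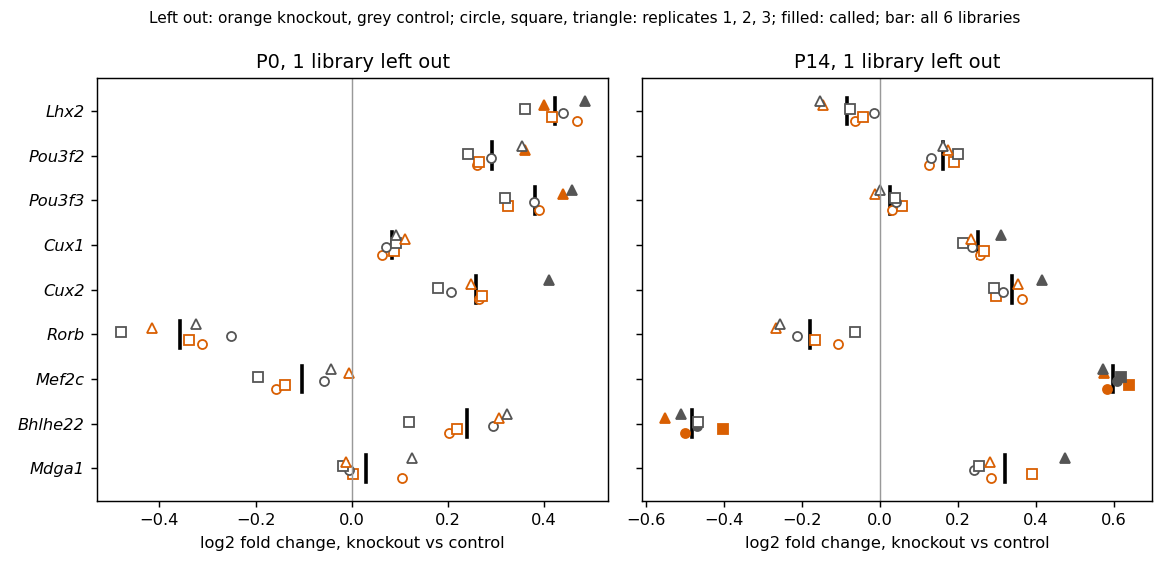
Log2 fold change of each of the 9 genes in the fits that leave out 1 library, at P0 and P14, with colour and shape for the library left out, filled where called, and a bar for all 6 libraries. Mef2c at P14 keeps to values from 0.57 to 0.64 and Bhlhe22 from -0.55 to -0.40, while Mdga1 at P0 spreads on both sides of 0.

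Other genes of callosal and upper-layer neurons did not follow the 9 genes as a group. Of the 25 on that list, 0 rose and 2 fell at P0, beside calls for 0.909% of all genes tested. At P0, 11 were positive, with a median log2 fold change of -0.06. At an unadjusted p under 0.05 these P0 counts were 6 and 7, beside 16.1% of all genes tested. DESeq2 called 3 and 3, beside 2.36% of all. At P14, 3 rose and 2 fell, beside 1.99% of all genes tested, with 9 positive and a median of -0.07. The counts were thus above these shares but without a common direction, a contrast that was not tested. Tle3, a Groucho-family corepressor gene, rose at P14 from 52.1 ± 1.20 to 78.2 ± 4.55 CPM (SD, n = 3 each), a log2 fold change of 0.60 (edgeR adjusted p = 7.33e-04). The call held in 6 of 6 fits that left out 1 library.

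The other calls on that list were kept in fewer of the fits without 1 library. Chn2, a Rac GTPase-activating gene, rose at P14 by 0.58 (edgeR adjusted p = 0.0156, kept in 3 of 6 fits without 1 library), and the neuropeptide gene Cartpt by 1.19 (adjusted p = 0.0251, kept in 2 of 6) from 1.29 to 2.92 CPM. Epha3, an ephrin receptor gene, had a log2 fold change of -0.41 at P14 (adjusted p = 0.0309, kept in 1 of 6). Cpne4, a copine gene, fell in both comparisons, at -0.42 at P0 (adjusted p = 0.0416) and -0.35 at P14 (adjusted p = 0.0352), each kept in 2 of 6. Rasgrf2, a Ras exchange factor gene, had -0.43 at P0 (adjusted p = 0.0482, kept in 2 of 6). At P0, leaving out replicate 1 or 2 of either group ended the calls of Cpne4 and Rasgrf2. Those fits called between 1 and 15 of all genes tested, against 147 with all 6 libraries. Over the 6 fits without 1 library, the P0 log2 fold changes ran from -0.457 to -0.366 for Cpne4 and from -0.495 to -0.367 for Rasgrf2. At P14, leaving out replicate 1 or 2 of either group ended the calls of Cartpt, Cpne4 and Epha3. Leaving out knockout replicate 3 also ended that of Epha3, and Chn2 was lost without knockout replicate 1 or 2 or control replicate 1. These P14 fits called between 104 and 191 of all genes tested, against 342 with all 6 libraries.

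Close relatives of the 9 genes did not pass in either comparison. Of 10 relatives, 7 were tested at P0 and 8 at P14, and 0 passed by edgeR, beside 0.909% and 1.99% of all genes tested. An unadjusted p under 0.05 was reached by 1 higher and 1 lower at P0 and by 2 and 2 at P14. Over all genes tested these shares were 16.1% at P0 and 15.2% at P14. DESeq2 called 1 relative at P0 and 0 at P14, beside 2.36% and 3.10% of all. Of the POU relatives on the list, Pou3f1 had 0.32 at P0 (edgeR adjusted p = 0.0789) and 0.30 at P14 (adjusted p = 0.159). Pou3f4 had -0.17 at P0 (adjusted p = 0.518) and 0.11 at P14 (adjusted p = 0.831). Mef2a and Mef2d, which encode the other MEF2 factors of neurons, had -0.21 and 0.19 at P14 (adjusted p = 0.171 and 0.305), beside 0.60 for Mef2c. Among 9 partners of the encoded proteins, 0 passed by edgeR at P0, where 1 was higher and 1 lower at an unadjusted p under 0.05 and DESeq2 called 1. At P14, 1 partner passed by edgeR, and 3 were higher and 1 lower at an unadjusted p under 0.05. Ldb2, whose product binds LIM-homeodomain factors such as LHX2, rose at P14 from 35.3 ± 3.03 to 47.3 ± 2.35 CPM (SD, n = 3 each). Its log2 fold change was 0.43 (adjusted p = 0.0176), and the call was kept in 2 of 6 fits without 1 library, being lost without control replicate 1 or any 1 knockout replicate. Ldb1, the other gene of that pair, had 0.29 at P0 (adjusted p = 0.0990) and -0.04 at P14. Prdm8, the partner gene of Bhlhe22, had -0.19 at P14 (adjusted p = 0.303).

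The genes most like each of the 9 over the 12 libraries were found by the root mean square difference of log2 CPM, each gene centred on its own mean. Zfp1 at 0.06 and Bola2 at 0.07 lay nearest to Lhx2, Mapk6 at 0.07 and F2r at 0.08 to Cux1, and Cul7 at 0.09 and Gtf2ird1 at 0.11 to Cux2. Eif4ebp2 and Rpl22, each at 0.08, lay nearest to Pou3f3, Ccdc88c at 0.08 and Chd5 at 0.10 to Mdga1, and Rc3h2 at 0.10 and Cnr1 at 0.11 to Bhlhe22. Mef2c, Rorb and Pou3f2 had more distant neighbours, in that order: Slc35f1 at 0.13 and Gm5835 at 0.14, Tcea1 at 0.12 and Manf at 0.13, and Bach2 at 0.12 and Gjc1 at 0.13. None of these nearest genes is another of the 9.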

How the data were processed

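The deposited files hold raw read counts per Ensembl gene, 1 library a file, made by the authors with STAR 2.7.5a per the submitters' processing notes, which also name edgeR 3.12. The file names give GRCm38 and annotation release 102. Trimming and the handling of multiply placed reads are not given in the sources used here. The unstranded count was used, since the strand columns held near-equal counts. Symbols came from GENCODE vM21.

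Replicates were numbered in accession order, since the labels number none. Each context was tested on its 6 libraries with edgeR 4.0.16 in R 4.3.3 (filterByExpr, TMM, robust glmQLFit, glmQLFTest), with Benjamini-Hochberg adjustment over all tested genes and a threshold of 0.05. The genotype effects of the contexts were compared through an interaction term over 12 libraries. CPM share 1 TMM scale over the 12 libraries, and intervals cover variation between animals and counting error. The scripts were tested on simulated data. Alternatives included DESeq2 1.42.0, other normalizations, no filter, GC content offsets and leaving out each library.

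The 9 genes and all lists were chosen with earlier results of these data known. The 9 genes and Auts2 were always named. Of the pathway lists, called genes or up to 3 with the largest changes at an average log2 CPM of at least 1 were named, and for each gene the 2 most alike. Marker genes, Prdm8 and Pou3f4 were named after their values were seen. Some items of the lists are not reported here and were left out of the list counts.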

Additional observations from a re-analysis of the deposited data

Results flagged for a closer look

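The genotype effect of 3 genes differed between P14 hippocampus and P0 forebrain by the interaction term of edgeR. The P14 log2 fold change minus the P0 one was 0.685 for Mef2c, with 0.60 at P14 and -0.10 at P0. For Bhlhe22 it was -0.740, with -0.48 at P14 and 0.24 at P0. For Lhx2 it was -0.525, with -0.08 at P14 and 0.42 at P0.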

How the results depend on the processing

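Of the 9 genes, 1 passed at P0, 2 at P14 and 3 by the difference between contexts. At P0 the count was 0 with non-robust fitting, 2 with upper-quartile normalization, DESeq2, the number series as a term or 1 fit on 12 libraries, 3 without a low-count filter or with a GC offset, 4 in the first number series alone, and 0 to 3 when 1 library was left out. At P14 it was 4 without a filter and 1 to 5 without 1 library, and for the interaction 2 to 4. Values that changed sign were all outside the threshold: Mef2c at P0 was 0.050 in the first series, Mdga1 at P0 ran from -0.018 to 0.125 without 1 library, Pou3f3 at P14 was -0.006 with a GC offset and from -0.012 to 0.057 without 1 library, Pou3f2's interaction was 0.043 with the larger strand column, and Cux2's ran from -0.056 to 0.144. The cause was not tested. Over all genes, P0 calls numbered 147, against 382 with DESeq2, 625 without a filter, 50 with non-robust fitting, 369 with a GC offset, 465 with the series term, 2107 in the first series, 284 in 1 fit on 12 libraries and 1 to 775 without 1 library. P14 calls numbered 342, against 534 with DESeq2, 814 without a filter and 104 to 1808 without 1 library, and interaction calls 326, against 205 with the larger strand column, 531, 646 and 125 to 905. No paired analysis was possible because the labels give no replicate numbers, and those used here were assigned in accession order and pair no libraries. Groups of 3 limit the precision, as the intervals show.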
